A study of Mus musculus with 45 samples.

Results

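The comparison described here sets bone marrow-derived macrophages of Famin p.284R mice against those of Famin p.254I mice after M2 polarization. It was formed from the sample labels, which gave 10 of the 45 libraries of the study, 5 M2 libraries of each genotype. All mice were C57BL/6N and 6 to 10 weeks old, and had been engineered to carry human variants of FAMIN, the purine enzyme that Lacc1 encodes. p.254I is the non-risk variant and p.284R the variant of a monogenic disease, and the other libraries came from the risk variant p.254V and from unstimulated (M0) and IFN-γ plus LPS-treated (M1) cultures of all 3 genotypes. Mice were bred from heterozygotes and macrophages were grown from marrow in M-CSF for 6 days and then given IL-4, so every library of the comparison shares strain, growth factor and cytokine. Each replicate number was taken as 1 mouse, since the design names 5 mice per genotype. Both alleles alter the protein, so a gene count cannot check the genotype label.

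IL-4 acts on macrophages through its receptor and STAT6 and induces arginase, chitinase-like proteins, lectins and chemokines, a state known as alternative or M2 activation that leans on fatty acid oxidation and mitochondrial respiration. FAMIN works in purine nucleotide metabolism and is abundant in macrophages. MID1 is a microtubule-associated ubiquitin ligase of the TRIM family that targets the catalytic subunit of protein phosphatase 2A, and NHE9, the product of Slc9a9, exchanges sodium or potassium for protons across endosomal membranes and thereby sets their pH.

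Macrophage identity and polarization were as labelled. Of 12 macrophage markers 11 had a row in the count table, and their summed level ran from 12375 to 14017 CPM (reads of the gene per 1000000 reads of the library, scaled for library composition) in p.254I and from 11490 to 14670 CPM in p.284R. Arg1 (arginase 1), a defining gene of M2 macrophages, ran from 802 to 1404 CPM in p.254I and from 734 to 1380 CPM in p.284R. It was 11.75 log2 units higher in M2 than in M0 cultures of p.254I mice. Markers of other lineages differed in level. The 8 T cell markers summed to at most 0.888 CPM, the 6 NK cell markers to at most 0.421 CPM and the 7 erythroid markers to at most 0.258 CPM in any of the 10 libraries. Neutrophil and precursor markers were higher and varied within both groups, from 66.8 to 234 CPM in p.254I and from 79.5 to 242 CPM in p.284R, with none of the 10 tested at an unadjusted p under 0.05. The 5 eosinophil markers summed to 72 to 139 CPM in p.254I and 71 to 86.9 CPM in p.284R. Of these 5, 3 stayed under 1 CPM in all 10 libraries, among them Il5ra at 0. Summed levels over the 10 libraries ran from 10.8 to 34.1 CPM for stromal, 5.91 to 18.7 CPM for B cell, 4.17 to 14.3 CPM for dendritic cell and 1.67 to 5.12 CPM for mast cell and basophil markers, and the groups overlapped for each list. Members under 1 CPM in all 10 libraries were 2 of 7 stromal, 5 of 7 B cell, 5 of 7 dendritic cell and 6 of 8 mast cell and basophil markers. The part of these cells in the results was not tested. Total counts of the 10 libraries ran from 19757185 to 32238351, so that 1 CPM was worth between 20.1 and 32.3 reads.

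Of 12905 genes tested, 1 was called between the genotypes in M2 at a Benjamini-Hochberg adjusted p under 0.05 (edgeR quasi-likelihood test), which is 0.00775% of them. It was Mid1, and it was higher in p.284R. Unadjusted p-values fell under 0.05 for 148 genes, 1.15% of those tested, of which 69 were higher (0.535%) and 79 lower (0.612%) in p.284R. The number was 296 without replicate 2 of p.254I and 465 with a replicate block within each polarization. About 5% would be expected with no difference in any gene, so the unadjusted p-values ran high. A list with 0 members under 0.05 is thus weak evidence of no difference. The median log2 difference over all genes tested was 0, and 85.1% of genes lay within 0.2 log2 units of it. Among the 8227 genes with a mean of at least 10 CPM, 3 differed by more than 1 log2 unit, namely Slc9a9, Ccl5 and Saa3. In 26 genes, 0.201% of those tested, the 5 libraries of one genotype all lay on one side of the 5 of the other, 16 higher (0.124%) and 10 lower (0.0775%) in p.284R.

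**Figure D1:**
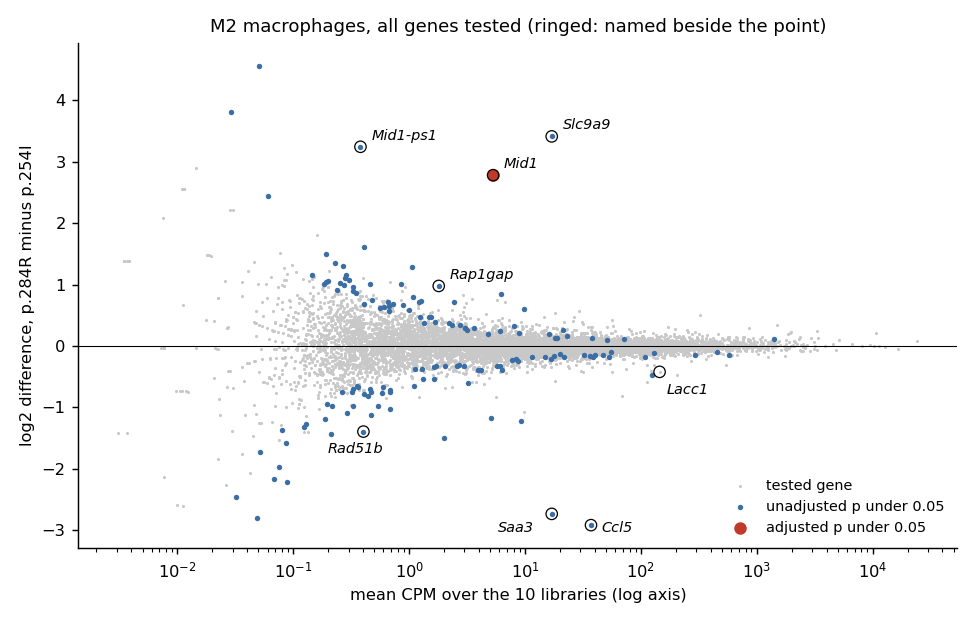
Log2 difference between p.284R and p.254I in M2 (vertical axis) against the mean CPM over the 10 libraries (horizontal log axis), 1 point per tested gene. Mid1 is the gene with an adjusted p under 0.05, Slc9a9 lies above it at 3.41, and most genes sit close to 0 with a spread that widens at low CPM.

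Mid1 (ENSMUSG00000035299) lies on the plus strand at chrX:169685199-170005736 in GRCm38 (mm10). Its level in the p.254I libraries, replicates 1 to 5, was 1.07, 1.20, 1.79, 1.70 and 0.895 CPM. In the p.284R libraries it was 8.59, 5.85, 8.72, 12.5 and 10.7 CPM. Every p.284R library exceeded every p.254I library. The means were 1.33 ± 0.394 CPM (SD, n = 5) and 9.27 ± 2.49 CPM (SD, n = 5), a ratio of 6.97. The fitted log2 difference was 2.78 with a standard error of 0.42 (edgeR quasi-likelihood test, adjusted p = 0.00075). These levels rested on 18 to 55 reads per library in p.254I and on 153 to 361 reads in p.284R. A two-sided exact permutation test of log2(CPM + 1) over the 10 libraries gave a mean difference of 2.12 and p = 0.0079. That p is the smallest that 5 libraries against 5 allow, and any gene without overlap gives it. The study had already listed Mid1 from these samples, so the test is not independent evidence. The call was lost when the spread was estimated from only the 15 M2 libraries (edgeR adjusted p = 0.35) with the log2 difference still at 2.78.

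Part of the Mid1 sequence has a copy on the Y chromosome. Mid1-ps1 (ENSMUSG00000095134, chrY:90753057-90763485 in GRCm38, plus strand) is annotated as an unprocessed pseudogene, and 1033 of the 1199 distinct stretches of 50 bases in its transcript, the read length of these libraries, also occur in transcripts of Mid1 (86.2%). Reads of those stretches cannot be assigned to either gene by sequence alone. The remaining stretches differ from Mid1, and the following pair shows one such position. It is drawn from exons of both genes (GENCODE transcripts), spans an intron in each, lies in the coding part of Mid1 (chrX:169986042-169987563) and in the pseudogene (chrY:90760559-90762083), and the capital marks the base that differs.
Mid1: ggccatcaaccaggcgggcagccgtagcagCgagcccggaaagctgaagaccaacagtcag
Mid1-ps1: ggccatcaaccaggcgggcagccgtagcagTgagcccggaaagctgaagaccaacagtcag
Mid1-ps1 itself was listed at 0, 0.193, 0.152, 0 and 0 CPM in p.254I and at 0.300, 0.535, 0.252, 0.0346 and 2.33 CPM in p.284R. These groups overlapped, 4 of 5 p.284R libraries lay above all p.254I libraries, and the highest value came from replicate 5. Its log2 difference was 3.24 with a standard error of 0.98, at an unadjusted p of 0.0021 (edgeR, adjusted p = 1.0), and that p was above 0.05 without replicate 5 of p.284R. The Y-linked genes Kdm5d, Uty, Ddx3y and Eif2s3y together reached at most 0.0382 CPM in these libraries, whereas Mid1-ps1 was listed at up to 2.33 CPM. Reads listed under Mid1-ps1 can therefore not be taken as expression from the Y chromosome, and their source was not tested. With the counts of Mid1 and Mid1-ps1 added together, Mid1 remained the called gene, at a log2 difference of 2.81 (edgeR adjusted p = 1.7e-04).

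Annotated transcripts on the opposite strand of Mid1 also hold some of its sequence. The processed transcript G530011O06Rik shares 36.7% of its 50-base stretches with Mid1 in reverse complement and the antisense transcript Gm15726 shares 22%. G530011O06Rik ran at 0.739, 1.27, 0.685, 1.11 and 0.746 CPM in p.254I and at 1.39, 2.52, 1.95, 0.795 and 0.925 CPM in p.284R. Gm15726 ran from 0.114 to 0.369 CPM in p.254I and from 0.259 to 1.01 CPM in p.284R. The groups overlapped for both, with log2 differences of 0.72 (SE 0.33, unadjusted p = 0.034) and 1.61 (SE 0.57, unadjusted p = 0.0079) by edgeR. Replicates 1, 2 and 3 were the high p.284R libraries for both transcripts, whereas replicates 4 and 5 were the high ones for Mid1. The libraries were strand-specific, but the sources used here do not state whether strand was used in counting, so these transcripts cannot be separated from Mid1 with certainty.

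Slc9a9 (ENSMUSG00000031129, chr9:94669909-95230445 in GRCm38, plus strand) showed a larger difference and a larger spread. It was at 2.25, 1.81, 3.35, 4.24 and 2.84 CPM in p.254I. It was at 46.4, 19.2, 12.5, 36.0 and 41.8 CPM in p.284R. All 5 p.284R libraries lay above all 5 p.254I libraries, and within p.284R replicates 2 and 3 were the low ones. The means were 2.90 ± 0.947 CPM (SD, n = 5) and 31.2 ± 14.7 CPM (SD, n = 5), a ratio of 10.8. The log2 difference was 3.41 with a standard error of 0.79, which did not pass the threshold over all genes (edgeR quasi-likelihood test, unadjusted p = 0.0001, adjusted p = 0.64). The exact permutation test of the 10 libraries gave a mean difference of 2.93 in log2(CPM + 1) and p = 0.0079, again the smallest possible. As for Mid1, any gene without overlap gives this p. The study had listed Slc9a9 from these samples, so the test is not independent evidence. With the DESeq2 Wald test Slc9a9 was called as well (adjusted p = 0.0022), and so it was by edgeR fitted to only the 10 libraries (adjusted p = 0.018).

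**Figure D2:**
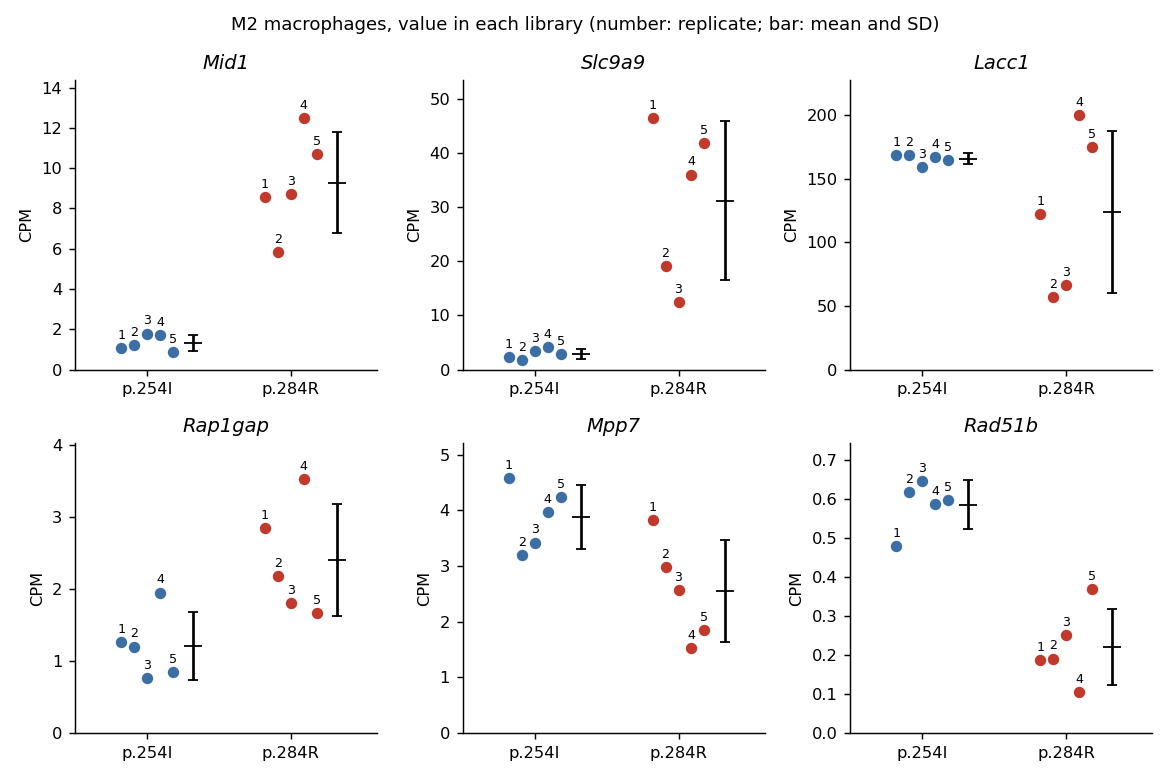
CPM in each of the 10 M2 libraries for 6 genes, with replicate numbers beside the points and the mean and SD of 5 libraries at the right of each group. Mid1, Slc9a9 and Rad51b separate the genotypes without overlap, whereas Lacc1 spreads from 56.8 to 200 CPM in p.284R against 159 to 169 CPM in p.254I.

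Genes around Mid1 and Slc9a9 gave small differences or large errors. Within 1 Mb of Mid1 the tested genes outside its own span were Arhgap6, a GTPase-activating protein, at a log2 difference of -0.02 (SE 0.09), Hccs, holocytochrome c synthase, at -0.10 (SE 0.09), and Gm21887 at 0.95 (SE 0.76). None of the 3 had an unadjusted p under 0.05. Within 1 Mb of Slc9a9 the checkpoint kinase Atr stood at 0.00 (SE 0.10), the exonuclease Xrn1 at 0.00 (SE 0.11) and the splicing factor U2surp at 0.00 (SE 0.05). The largest differences there were those of Chst2 at 1.07 (SE 0.83) and Pcolce2 at -0.94 (SE 0.76), neither above 0.342 CPM in any library compared. None of the 9 neighbours tested had an unadjusted p under 0.05.

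The list of MID1 partners and relatives, built around the called gene, had 12 of its 16 members tested. Mid1 and Mid1-ps1 were those with an unadjusted p under 0.05, against 1.15% of all genes. They are the called gene itself and a pseudogene that shares its sequence, so this count is no result about the partners. Ppp2ca, the phosphatase 2A catalytic subunit, ran from 283 to 336 CPM in p.254I and from 273 to 326 CPM in p.284R (log2 difference -0.01, 95% interval -0.13 to 0.10). Igbp1, the α4 protein that links MID1 to the phosphatase, stood at -0.05 (95% interval -0.18 to 0.08). Of 12 sodium-proton exchangers 8 were tested, and Slc9a9, already known to differ, was the member with an unadjusted p under 0.05. The list median was 0.065 for the exchangers and 0.102 for the other pH genes, of which 15 of 28 were tested and 0 had an unadjusted p under 0.05. Both medians moved with single libraries, that of the exchangers from -0.012 without replicate 2 of p.254I to 0.09 without replicate 5 of p.284R, and that of the other pH genes from -0.005 without replicate 4 of p.254I to 0.128 without replicate 4 of p.284R. Hvcn1, the voltage-gated proton channel, had medians of 242 CPM in p.254I and 265 CPM in p.284R (log2 difference 0.24, 95% interval -0.11 to 0.58). The 19 tested V-ATPase subunits, which pump protons into endosomes and lysosomes, had a median of -0.028 and 0 members with an unadjusted p under 0.05.

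Lacc1 (ENSMUSG00000044350, chr14:77024200-77036904 in GRCm38, minus strand), the gene that carries the variants, varied little across p.254I and widely across p.284R. It measured 169, 169, 159, 167 and 165 CPM in p.254I. It measured 122, 56.8, 66.6, 200 and 175 CPM in p.284R. Of the p.284R libraries 3 lay below and 2 above all p.254I libraries, and the SD was 63.4 CPM against 3.97 CPM. The log2 difference was -0.42 with a standard error of 0.23 (edgeR, unadjusted p = 0.074, adjusted p = 1.0). That unadjusted p fell under 0.05 when replicate 4 or replicate 5 of p.284R was left out. The p.284R order recurred in the other cultures of the same replicate numbers. In M0 these were 119, 108, 91.2, 169 and 160 CPM, and in M1 396, 263, 218, 584 and 553 CPM. Replicates 4 and 5 were thus the highest and replicates 2 and 3 the lowest in each polarization. Replicates 2 and 3 were also the lowest p.284R libraries for Slc9a9 in M2, and replicates 4 and 5 the lowest for Mpp7. For Mid1, replicates 4 and 5 were the highest p.284R libraries and replicate 2 the lowest in each polarization. Its p.284R values were 3.87, 2.74, 4.42, 6.74 and 8.70 CPM in M0 and 6.45, 3.53, 3.71, 8.07 and 9.12 CPM in M1. A relation between these genes was not tested. The Slc9a9 order was another in the other cultures, with replicate 2 the highest and replicates 4 and 5 the lowest in M0 (213, 253, 169, 162 and 140 CPM) and in M1 (45.6, 52.1, 35.6, 26.0 and 26.4 CPM). Ccdc122, which overlaps Lacc1 on the opposite strand, showed no such division, running from 5.84 to 10.0 CPM in p.254I and from 5.87 to 10.7 CPM in p.284R (log2 difference -0.02, SE 0.18).

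**Figure D3:**
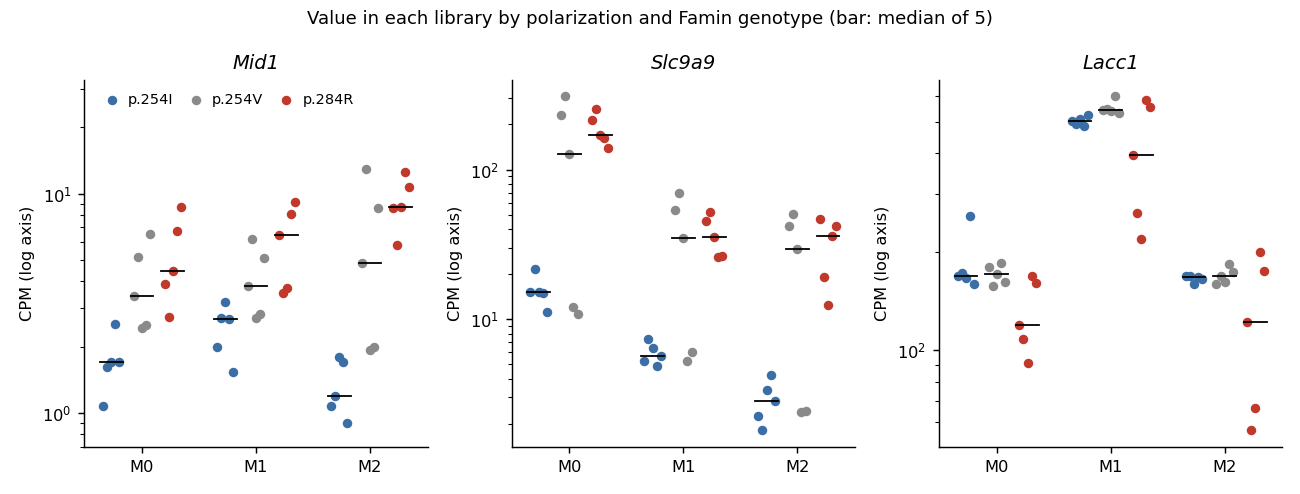
CPM of Mid1, Slc9a9 and Lacc1 on log axes in each library of M0, M1 and M2 cultures, coloured by genotype, with a bar at the median of 5. The p.284R libraries lie above the p.254I libraries for Mid1 and Slc9a9 in all 3 polarizations, and the p.254V libraries split for Slc9a9 into 3 near p.284R and 2 near p.254I.

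Mid1 and Slc9a9 did not overlap between the genotypes in the other polarizations either, although neither passed the threshold there. For Mid1 the p.254I libraries ran from 1.08 to 2.54 CPM in M0 and from 1.54 to 3.19 CPM in M1, and the p.284R libraries from 2.74 to 8.70 CPM and from 3.53 to 9.12 CPM. The Mid1 log2 difference was 1.61 (SE 0.40) in M0 and 1.33 (SE 0.39) in M1, neither of which passed the threshold by edgeR (adjusted p = 1.0 and 0.23). Called genes numbered 0 of 12905 in M0 (0%) and 34 in M1 (0.263%) by edgeR, and unadjusted p-values under 0.05 numbered 140 in M0 (1.08%) and 864 in M1 (6.7%). The Mid1 difference was larger in M2 than in M0 by 1.17 log2 units (SE 0.57, unadjusted p = 0.048) and larger than in M1 by 1.45 (SE 0.57, unadjusted p = 0.015), with edgeR adjusted p-values of 1 for both interactions. The fit behind these interactions did not model that cultures of one replicate number were read as coming from the same mouse. For Slc9a9, p.254I ran from 11.2 to 21.7 CPM and p.284R from 140 to 253 CPM in M0, a log2 difference of 3.58 (SE 0.72, edgeR adjusted p = 0.17), and in M1 the difference was 2.64 (SE 0.73, edgeR adjusted p = 0.16). Its level fell by 2.42 log2 units from M0 to M2 in p.254I (edgeR adjusted p = 0.0079). The Slc9a9 genotype difference in M2 was within its error of that in M0 (interaction -0.17, SE 1.03) and in M1 (0.77, SE 1.05).

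Across all genes the interaction of genotype with polarization gave 0 calls by edgeR for M2 against M0 and 0 for M2 against M1, each 0% of genes tested. Unadjusted p-values under 0.05 numbered 70 (0.542%) and 350 (2.71%), and the former count was 106 without replicate 4 of p.254I. DESeq2 also called 0 in each, with 71 and 368 unadjusted. With the mouse as a fixed block in edgeR, 0 were called in each, with 122 and 539 unadjusted. With a replicate block within each polarization, M2 against M1 gave 2 calls, Nr1h3 and 1110002J07Rik, with 1025 unadjusted p-values under 0.05, and M2 against M0 gave 0 calls with 210.

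The M2 libraries of p.254V mice, which were part of the fit, gave Mid1 at 4.81, 12.9, 1.93, 1.99 and 8.56 CPM and Slc9a9 at 42.0, 50.3, 29.6, 2.41 and 2.43 CPM. For Slc9a9, replicates 1 to 3 lay in or near the p.284R range and replicates 4 and 5 lay within the p.254I range. The same 2 replicates were the low ones in M0, at 12 and 10.9 CPM against 127 to 308 CPM, and in M1, at 5.25 and 6.00 CPM against 35.1 to 69.8 CPM. For Mid1 the low p.254V libraries in M2 were replicates 3 and 4 instead, so the genes did not split these mice in the same way. The comparison of p.254V with p.254I shares its control libraries with that of p.284R. Against p.254I the p.254V log2 difference in M2 was 2.16 (SE 0.42) for Mid1 and 3.11 (SE 0.79) for Slc9a9, and p.284R minus p.254V was 0.63 (SE 0.37) and 0.30 (SE 0.66).

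The genes that the study itself listed for these genotypes include Mid1 and Slc9a9 and were chosen on these samples, so their direction here is not independent evidence. Of 35 listed genes 34 were tested, 6 were higher and 1 lower at an unadjusted p under 0.05, against 0.535% and 0.612% of all genes. The 7 became 4 without replicate 1 of p.254I. The median log2 difference was 0.235 against 0 for all genes tested. That median moved with single libraries, to 0.142, 0.36 and 0.113 without replicates 3, 4 and 5 of p.254I and to 0.13 and 0.381 without replicates 1 and 5 of p.284R. Rap1gap, a GTPase-activating protein that switches off the small GTPase RAP1, was at 1.26, 1.20, 0.761, 1.95 and 0.846 CPM in p.254I and at 2.85, 2.18, 1.80, 3.52 and 1.67 CPM in p.284R. The groups overlapped through replicate 4 of p.254I, and the log2 difference was 0.98 (SE 0.27, unadjusted p = 0.00095, edgeR adjusted p = 1.0). Mpp7, a membrane scaffold protein of cell junctions, was at 4.58, 3.20, 3.42, 3.96 and 4.23 CPM in p.254I and at 3.82, 2.98, 2.56, 1.52 and 1.85 CPM in p.284R. Of these p.284R libraries 4 lay below all p.254I libraries, and the log2 difference was -0.61 (SE 0.26, edgeR unadjusted p = 0.024). Fgr, a SRC-family kinase of myeloid cells, ran from 5.97 to 11.0 CPM in p.254I and from 8.85 to 16.1 CPM in p.284R (log2 difference 0.60, SE 0.28, edgeR unadjusted p = 0.039). The other members above that threshold were G530011O06Rik and Mid1-ps1, both described beside Mid1. Several listed genes of the M1 response, such as Cxcl11, Heatr9 and Ubd, did not exceed 0.1 CPM in any of the 10 libraries, and Il23r was at 0 in all of them.

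IL-4 response genes gave 0 members with an unadjusted p under 0.05 of 32 tested, against 1.15% of all genes, and 1 member without replicate 2 of p.254I (Cdh1) or replicate 3 of p.284R (Ear2). Of the 32, 30 were called higher in M2 than in M0 cultures of p.254I mice, a comparison in which 30% of all genes were called higher. The median genotype difference was 0.089, with 22 members above 0 and 10 below, and it was 0.134, 0.023 and 0.057 without replicates 2, 4 and 5 of p.254I and 0.035 without replicate 1 of p.284R. Retnla, the secreted protein RELMα, was at 2990, 3279, 4899, 1287 and 2824 CPM in p.254I and at 5539, 3662, 1639, 2771 and 4445 CPM in p.284R. Its groups overlapped widely (log2 difference 0.24, 95% interval -1.13 to 1.62). Mmp12, macrophage elastase, the most abundant member, ran from 2950 to 16199 CPM in p.254I and from 6755 to 16200 CPM in p.284R (log2 difference 0.21, 95% interval -0.63 to 1.05). Chil3, the chitinase-like protein Ym1, stood at 0.35 (95% interval -0.58 to 1.28) and Arg1 at -0.06 (95% interval -1.11 to 1.00), both named here as defining M2 genes after their values had been seen. The interval was narrower for Pparg, a nuclear receptor induced by IL-4, at -0.21 to 0.24. The IL-4 receptor pathway had 15 of 16 genes tested, 0 with an unadjusted p under 0.05 and a median of -0.001 (-0.042 to 0.028 with single libraries left out). Its transcription factor Stat6 ran from 246 to 349 CPM in p.254I and from 256 to 317 CPM in p.284R, and the kinase Jak1 from 293 to 349 CPM and from 282 to 344 CPM.

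Genes of IFN-γ and LPS responses were low in these cultures, and 1 of 32 tested, Ccl5, had an unadjusted p under 0.05, against 1.15% of all genes. Without replicate 4 of p.254I it was 0 of 32, with Ccl5 at an edgeR unadjusted p of 0.84. The list median was 0.025 and changed sign with single libraries left out, from -0.081 without replicate 3 of p.284R to 0.128 without its replicate 4. Cxcl9, Cxcl10 and Nos2, which M1 macrophages express, did not exceed 1 CPM in any of the 10 libraries, while the more abundant Gbp2 ran from 50.2 to 184 CPM in p.254I and from 83.7 to 148 CPM in p.284R and Irf8 from 108 to 163 CPM and from 98.6 to 130 CPM.

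**Figure D4:**
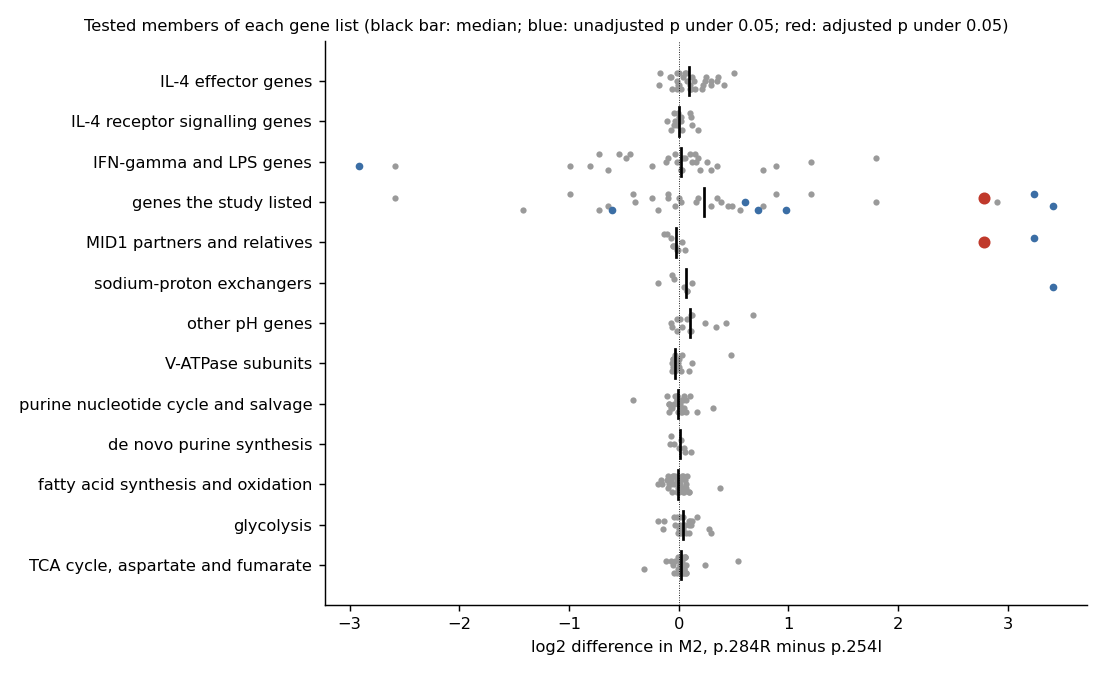
Log2 difference between p.284R and p.254I in M2 for the tested members of 13 gene lists, 1 point per gene, with a black bar at each list's median. Metabolic lists cluster at 0, and the points with an unadjusted p under 0.05 belong to the Mid1, Slc9a9 and study-listed genes and to Ccl5.

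Purine and energy genes gave 0 members with an unadjusted p under 0.05, a count near the 1.15% found over all genes. Leaving out single libraries gave up to 2 members in the purine cycle and salvage list, 3 in the fatty acid list, 1 in glycolysis and 2 in the TCA list, and 0 in de novo purine synthesis. The medians of these 5 lists then lay between -0.034 and 0.077. Of the purine nucleotide cycle and salvage genes 30 of 33 were tested, with 0 at an unadjusted p under 0.05 and a median of -0.006. The cycle itself turns IMP into AMP and back. Of its enzymes, Ampd2 differed by -0.01 (95% interval -0.12 to 0.10), Adss by -0.02 (95% interval -0.18 to 0.13) and Adsl by 0.04 (95% interval -0.11 to 0.19). Ampd3, which the study also reports as expressed in macrophages, is not given here, so these values do not cover the whole cycle. Xdh, xanthine oxidoreductase, ran from 175 to 526 CPM in p.254I and from 180 to 353 CPM in p.284R. All 8 genes of de novo purine synthesis were tested, with 0 at an unadjusted p under 0.05, and their terminal enzyme Atic stood at 0.06 (95% interval -0.11 to 0.24).

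Fatty acid synthesis and oxidation had 35 of 36 genes tested, 0 with an unadjusted p under 0.05 and a median of -0.01. Its most abundant members were Lpl, lipoprotein lipase, at 11621 to 13632 CPM in p.254I and 11074 to 14765 CPM in p.284R, and the fatty acid transporter Cd36, at 7272 to 9455 CPM and 7137 to 9297 CPM. Glycolysis had 26 of 26 tested, 0 with an unadjusted p under 0.05 and a median of 0.037, with Pkm, pyruvate kinase, at 0.03 (95% interval -0.18 to 0.25). The 32 genes of the TCA cycle, aspartate and fumarate gave 0 and a median of 0.02, with the succinate dehydrogenase subunit Sdha at 0.01 (95% interval -0.10 to 0.13). The 10 genes of dividing cells, all tested, had log2 differences below 0 with a median of -0.191 and 0 with an unadjusted p under 0.05, and their summed level ran from 111 to 226 CPM in p.254I and from 98.5 to 165 CPM in p.284R. In bulk RNA, fewer cells of a kind and less RNA per cell cannot be told apart.

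Among the 12 genes lower in p.284R with the smallest unadjusted p, Rad51b, which acts in homologous recombination, stood first (ENSMUSG00000059060, chr12:79297282-79814690 in GRCm38). It was at 0.480, 0.618, 0.647, 0.587 and 0.597 CPM in p.254I and at 0.187, 0.191, 0.252, 0.104 and 0.370 CPM in p.284R. The groups did not overlap, but the values rested on 12 to 19 reads and on 3 to 10 reads. The log2 difference was -1.39 (SE 0.34, unadjusted p = 0.00018, edgeR adjusted p = 0.76). It was -0.14 (SE 0.28) in M0 and 0.10 (SE 0.29) in M1, where the groups overlapped. Ikzf5, a zinc finger protein of the Ikaros family, was lower by a small margin without overlap, at 7.79 to 8.60 CPM in p.254I and 6.49 to 7.61 CPM in p.284R (log2 difference -0.23, SE 0.07, edgeR unadjusted p = 0.0016). Tmem192, a lysosomal membrane protein, ran from 47.1 to 52.3 CPM and from 39.4 to 48.8 CPM (log2 difference -0.15, SE 0.05, edgeR unadjusted p = 0.0071), and Sass6, a centriole assembly protein, from 5.79 to 7.84 CPM and from 4.40 to 6.40 CPM (log2 difference -0.32, SE 0.11, edgeR unadjusted p = 0.0048). These 3 had an edgeR adjusted p of 1.0. Of the rest of the 12, Gm26737 (-1.44) did not overlap between the genotypes, whereas Tssk4 (-0.97), Rd3 (-1.19), Asb2, Aplp1 (-0.54), Ccl12 (-1.50), Ctla2b and Ccl5 did. Rap1gap, Slc9a9, Mpp7, Ikzf5, Tmem192 and Sass6 each overlap an annotated gene on the opposite strand.

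Among the 12 higher genes with the smallest unadjusted p, those beside Mid1, Slc9a9, Rap1gap, Mid1-ps1 and Gm15726 were expressed at low levels. Tmem267, a membrane protein whose gene overlaps antisense transcripts, was at 0.258, 0.579, 0.761, 0.773 and 0.696 CPM in p.254I and at 2.21, 1.19, 1.44, 1.45 and 1.18 CPM in p.284R, without overlap (log2 difference 1.28, SE 0.39, edgeR unadjusted p = 0.0022). Gem, a GTP-binding protein that dampens calcium channels, ran from 0.111 to 0.199 CPM and from 0.207 to 0.600 CPM (log2 difference 1.30, SE 0.45, edgeR unadjusted p = 0.0066). The long intergenic RNA 5033430I15Rik ran from 0.148 to 0.228 CPM and from 0.346 to 0.450 CPM (log2 difference 1.11, SE 0.36, edgeR unadjusted p = 0.0034). Pvrig, a receptor of lymphoid cells, had 0 reads in all p.254I libraries and 2, 2, 4, 5 and 1 reads in p.284R, 14 reads in all. The pseudogene Gm8093 (log2 difference 1.15), Gm19557 (0.58) and Npr1, a natriuretic peptide receptor (0.75), overlapped between the genotypes. None of these passed the threshold by edgeR.

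Of the genes lower in p.284R, several rested on replicate 4 of p.254I. That library lay apart from the other 9, with 17 genes at least 2-fold above all of them at 10 CPM or more and 10 genes at least 2-fold below, whereas no other library had more than 1 in either direction. Ccl5, a chemokine that interferons and LPS induce, was at 11.6, 15.7, 5.63, 288 and 6.62 CPM in p.254I and at 3.45, 12.3, 17.4, 3.97 and 6.59 CPM in p.284R. Its log2 difference was -2.91 (edgeR unadjusted p = 0.0062) with all libraries and -0.19 (unadjusted p = 0.84) without replicate 4 of p.254I. Saa3, an acute-phase protein named here after its values had been seen, was at 134 CPM in that library and at 1.94 to 6.60 CPM in the other 9, and its log2 difference went from -2.73 (edgeR unadjusted p = 0.012) to 0.40 (unadjusted p = 0.69). The interferon-induced transcription factor Irf7, also named afterwards, was at 289 CPM against 20.3 to 90.7 CPM. Ctla2b, a cysteine protease inhibitor, was at 18.5 CPM against 2.06 to 5.82 CPM, with log2 differences of -1.17 (edgeR unadjusted p = 0.0038) and, without the library, -0.37 (unadjusted p = 0.27). The M0 library of the same replicate number was also high, with Ccl5 at 563 CPM against 6.58 to 11.4 CPM in the other p.254I M0 libraries and Irf7 at 1540 CPM against 107 to 171 CPM. Without the M2 library, 132 genes had an unadjusted p under 0.05, 77 higher and 55 lower, of which 76 were among the 148 found with it, and Mid1 was again the called gene (log2 difference 2.89, edgeR adjusted p = 0.0035).

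**Figure D5:**
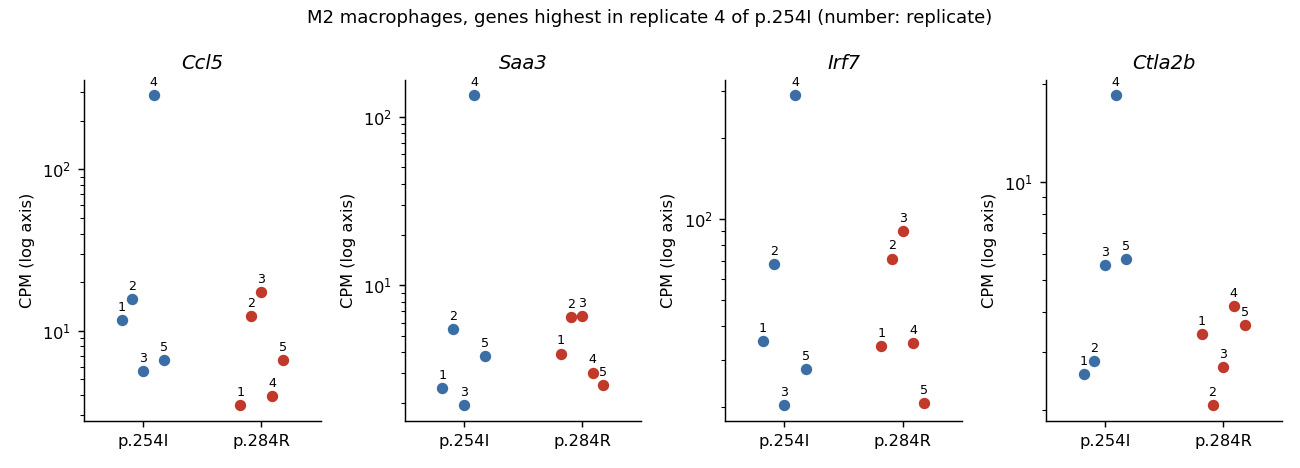
CPM of Ccl5, Saa3, Irf7 and Ctla2b on log axes in the 10 M2 libraries, with replicate numbers beside the points. Replicate 4 of p.254I is the highest library in each panel (288, 134, 289 and 18.5 CPM).

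The main axis of variation among the 10 libraries did not follow genotype. The first principal component held 45.5% of the variance and placed p.254I replicates 1 and 2 with p.284R replicates 2 and 3 on its negative side, at -9.67 to -16.2, and p.254I replicates 3, 4 and 5 with p.284R replicates 4 and 5 on its positive side, at 8.23 to 12. Replicate 1 of p.284R lay between them, at 0.514. By number, replicates 2, 4 and 5 of the genotypes lay on the same side and replicate 3 on opposite sides. The reported fit held no replicate term. Replicate 4 of p.254I stood alone on the second component, at 21.0. Mmp12 moved with the first component in both genotypes, from 15059 to 16200 CPM in the negative libraries against 2950 to 8123 CPM in the positive ones and 11099 CPM in replicate 1 of p.284R, and its part in the genotype differences was not tested.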

How the data were processed

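Counts deposited by the authors, whole numbers of reads per gene with no normalization, covered 29307 Ensembl genes in 45 single-end, strand-specific libraries with reads of 50 bases. The study's methods and the submitters' processing notes name Trim Galore, HISAT2 and mm10, whereas the series description names Cutadapt and STAR. The counting tool, its annotation and its use of strand are not given in the sources used here. Each lane held several libraries, but the lane of each is not given in the sources used here, so lanes were not modelled. A second deposited table, of CPM, was not used. GENCODE M21 named 29146 of the gene identifiers.

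Genes were kept by filterByExpr over 9 groups, scaled by TMM (0.949 to 1.02 in the 10 libraries compared) and fitted with glmQLFit, robust, to all 45 libraries (edgeR 4.0.16, limma 3.58.1 and DESeq2 1.42.0 in R 4.3.3), with no replicate term. Intervals are the log2 difference ± 1.96 standard errors. Scripts were tested on simulated counts. Depth per library ran from 17239009 to 43740283 counts. P-values measure the spread between libraries, each replicate number being read as 1 mouse.

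Genes were named if called, among the 12 higher or 12 lower with the smallest unadjusted p, in a fixed set (Lacc1, Mid1, Slc9a9, Mid1-ps1, G530011O06Rik, Rap1gap, Mpp7, Ccdc122), within 1 Mb of Mid1, Slc9a9 or Lacc1, or, of each list, at an unadjusted p under 0.05 or among its 2 most abundant members. Other genes were named after their values were seen. The comparison, lists and alternatives were chosen with earlier results of these data known. Alternatives were DESeq2 size factors, the DESeq2 Wald test, limma-voom with and without the mouse as a random block, no filter, at least 10 counts in each of the 10 libraries, fits to only 10 or 15 libraries, replicate and mouse blocks, a pseudocount of 0.25 or total counts for the permutation tests, and each library left out. Summing Mid1 and Mid1-ps1 was added after the data were seen.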

Additional observations from a re-analysis of the deposited data

Results flagged for a closer look

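In 8 of 52 tested sets of 5 libraries, the genes with values given by library in M2, the highest or lowest library lay beyond Dixon's 95% limit of 0.71, a limit that about 1 in 20 sets pass by chance. Several of these genes were chosen with the values of single libraries in view, so the count cannot be set against that rate. Of these, 6 concern replicate 4 of p.254I. It was the highest p.254I library for Ccl5 (288 CPM, next 15.7), Saa3 (134 CPM, next 5.48), Irf7 (289 CPM, next 67.9), Ctla2b (18.5 CPM, next 5.82) and the chemokine Ccl12 (7.92 CPM, next 2.22), and the lowest for the proton channel Hvcn1 (181 CPM, next 238). Mid1-ps1 was highest in replicate 5 of p.284R (2.33 CPM, next 0.535). Tmem267 was highest in replicate 1 of p.284R (2.21 CPM, next 1.45).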

How the results depend on the processing

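Mid1 was called in 20 of 21 alternatives, with the exception of the fit to only the 15 M2 libraries, where its log2 difference was 2.78 and 0 genes were called. Slc9a9 was called in 2 of them, the DESeq2 Wald test (3.43) and edgeR fitted to only the 10 libraries (3.42), which each called 2 genes, Mid1 and Slc9a9. Leaving out single libraries gave log2 differences of 2.65 to 2.91 for Mid1 and 3.22 to 3.61 for Slc9a9, 1 call in each case, mean differences of 2.01 to 2.26 and 2.75 to 3.20 with an exact permutation p of 0.016, and 0 calls for each interaction. That permutation p is the smallest possible with 1 library left out. Any gene without overlap gives it, so it says nothing about stability. Unadjusted p-values under 0.05 in M2 numbered 148 in the reported fit, 350 without a filter and 85 with at least 10 counts in each library. Deviations of p.284R and p.254I libraries with the same replicate number correlated at 0.315, 0.791, -0.441, 0.344 and 0.696 in M2, at 0.123 to 0.853 in M0 and at 0.301 to 0.818 in M1. Not every pair was above 0.1 in M2, so the numbers were not taken as pairs for that comparison, although all were in M0 and M1. With the replicate block within each polarization, M2 gave 1 call (Mid1, log2 difference 2.78, edgeR adjusted p = 0.029), 465 unadjusted p-values under 0.05, and 2 calls for M2 against M1, Nr1h3 and 1110002J07Rik, where there had been 0; with only the 10 libraries the replicate block gave 1 call. For the 69 other named genes no call arose among 1431 values, each of them 1 gene under 1 of these 21 alternatives. Of 260 list medians, 13 moved by more than the SD of the list's mean level between p.254I libraries, among them that of the study's genes to 0.559 with at least 10 counts in each library. The causes were not tested. Values under 1 CPM rest on at most about 32.3 reads and carry counting error.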
